A study of Mus musculus with 6 samples.

Results

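Plasminogen activation and the start of blood clotting were followed through 9 genes of the 21456 listed for white adipose tissues (WATs): Plat, Plau, Plaur, Serpine2, Serpinb2, F3, Tfpi, Thbd and Procr. The genes were picked by symbol with earlier results of this same comparison in view, so their values are a description. No p-value is printed for any of them. Calls by the tests are counted below beside those over all genes, and nothing is read from them. RNA from WATs of 3 control mice (Ntsr2 flox/flox) was compared with RNA from 3 Ntsr2 AKO mice (Adipoq-cre::Ntsr2 flox/flox) on a chow diet, to ask what loss of neurotensin receptor 2 from adipocytes does to the tissue. Both genotypes carried the floxed alleles. The age of these mice and the fat depot were not given in the sources used here. Adipoq-cre acts in white and brown adipocytes, whereas the RNA came from whole tissue, in which blood vessel, immune and stromal cells kept the receptor gene. Levels are given as normalized counts, in which each library's read counts were scaled by 1 size factor, and mice are named by genotype and replicate number (3, 4 or 5). Nothing in the labels says how the mice were matched or whether they were littermates.

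The libraries held 60405373 to 66098226 reads on genes in the control group and 54085088 to 56268725 in the Ntsr2 AKO group, so every control library was the deeper. Ntsr2, the targeted gene, was at 64.0 to 152.5 normalized counts in control mice and at 0 to 8.29 in Ntsr2 AKO mice, and Adipoq, which marks adipocytes, overlapped between the genotypes (log2 fold change 0.01). The 3 libraries of control 5, Ntsr2 AKO 4 and Ntsr2 AKO 5 carried skeletal muscle RNA, with 4.39%, 0.159% and 0.345% of their reads on 10 muscle markers, against at most 0.00257% in the other 3. Over all 16157 genes tested, limma called 1 gene at an adjusted p under 0.05, which was none of the 9.

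Fibrinolysis is the removal of blood clots by plasmin, a protease made from plasminogen by tissue plasminogen activator (Plat) and urokinase (Plau). Urokinase is held at cell surfaces by its receptor (Plaur), and serpins such as protease nexin 1 (Serpine2) and plasminogen activator inhibitor 2 (Serpinb2) block both activators. Clotting is started by tissue factor (F3), held in check by tissue factor pathway inhibitor (Tfpi), and turned down by thrombomodulin (Thbd) and the endothelial protein C receptor (Procr), which together allow thrombin to activate protein C. In adipose tissue these proteins come from several cell types, among them vessel walls, macrophages and adipocyte precursors, and the urokinase system also takes part in remodelling of the extracellular matrix.

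Plaur, the urokinase receptor, was the one gene of the 9 whose values in the genotypes did not overlap. Control mice 3, 4 and 5 had 524, 575 and 624 normalized counts of Plaur, and Ntsr2 AKO mice 3, 4 and 5 had 334, 150 and 181. Every Ntsr2 AKO mouse thus lay below every control mouse, and the Ntsr2 AKO mouse nearest to the controls was number 3. The mean was 574 ± 49.9 (SD, n = 3) in control mice and 222 ± 98.6 (n = 3) in Ntsr2 AKO mice. On the log2(normalized count + 1) scale the difference in Plaur was -1.45 (SE 0.31, 95% interval -2.19 to -0.71), or 2.73-fold lower in Ntsr2 AKO mice. Counting error was small beside this, since 145 to 650 reads of Plaur were behind each value.

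Of the 16157 genes tested, 15.0% had genotypes that did not overlap (8.16% with the Ntsr2 AKO mice lower), and 8.35% had an unadjusted p under 0.05 (5.27% lower). The adjusted limma call was met by 0.00619% of genes and by 0 of the 9, whereas DESeq2 on recovered reads called 1.36% of genes (0.953% lower) and, of the 9, Plaur alone. Since the same comparison guided the choice of the genes, nothing is read from these counts. Leaving out each mouse in turn gave log2 fold changes of Plaur from -1.79 to -1.21, and in only the 3 mice with little skeletal muscle RNA the difference was -0.71 (SE 0.32), with control 3 and control 4 set against Ntsr2 AKO 3. With reads thinned to the smallest library it was -1.46.

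**Figure D1:**
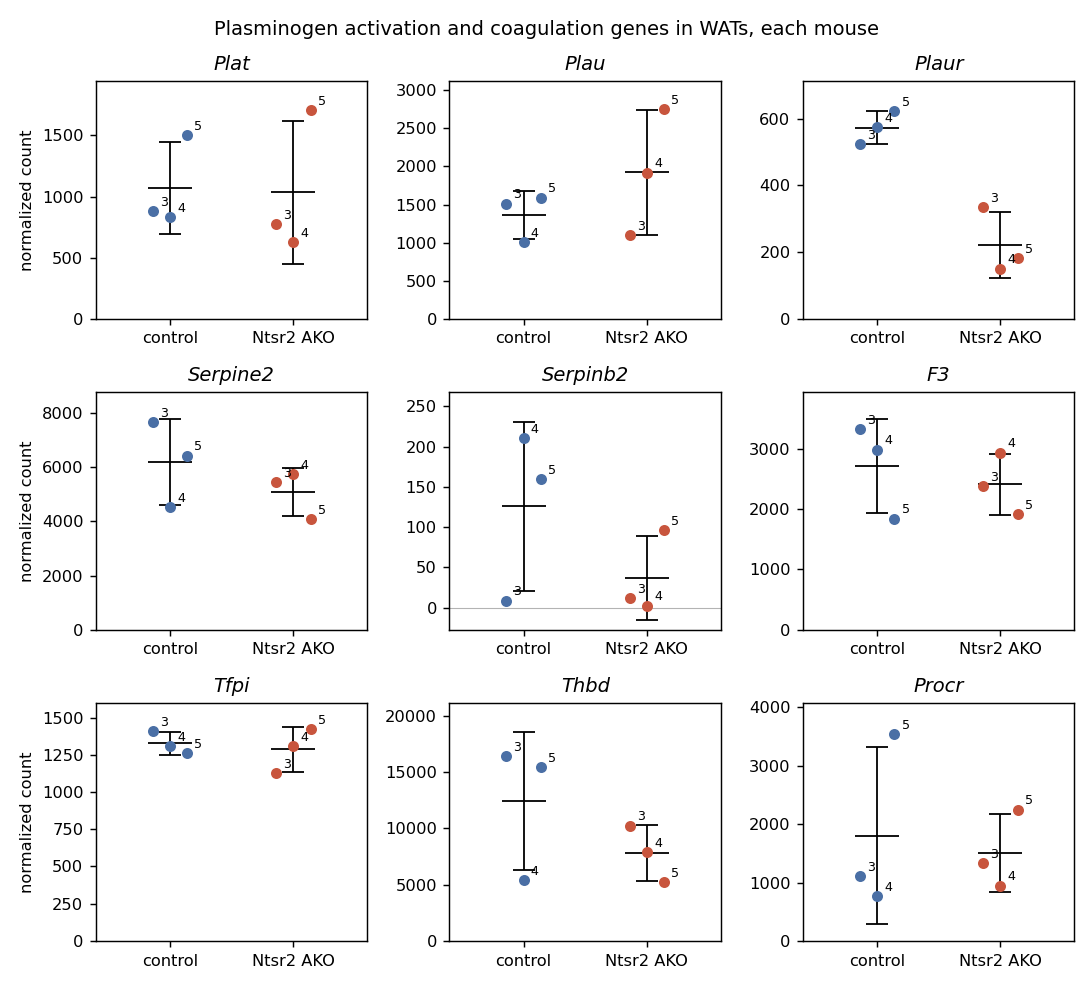
Normalized counts (vertical axis, linear, a separate scale in each panel) of the 9 genes in control mice (blue) and Ntsr2 AKO mice (red), with the replicate number beside each point, the mean as the wide bar and the SD over 3 mice as the narrow bars. Plaur is the one panel in which the groups are apart, with controls between 524 and 624 and Ntsr2 AKO mice between 150 and 334. The SD bar of Serpinb2 in Ntsr2 AKO mice runs below 0 because the SD is larger than the mean.

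Plaur lies on chromosome 7 (GRCm38, chr7:24462484-24475968, plus strand). Promoters were searched for the letters of AP-1 sites, bound by the Fos and Jun proteins, of EGR sites, bound by the Egr proteins, and of the other motifs given below. Whether any such site has a part in the level of a gene was not tested. Promoters of 6 of the 9 genes were given in RefSeq (GRCm38.p6) as 8 windows of 300 bases, 250 before and 50 after the start. Plat, Plau and Thbd had no window. The 250 bases before the start are shown for the 3 genes with an AP-1 match whose printed bases all lie before the annotated gene, Plaur (chr7:24462233-24462482, plus strand), F3 (chr3:121723287-121723536, plus strand) and Serpinb2 (chr1:107511173-107511422, plus strand), with motif matches in capitals.
Plaur: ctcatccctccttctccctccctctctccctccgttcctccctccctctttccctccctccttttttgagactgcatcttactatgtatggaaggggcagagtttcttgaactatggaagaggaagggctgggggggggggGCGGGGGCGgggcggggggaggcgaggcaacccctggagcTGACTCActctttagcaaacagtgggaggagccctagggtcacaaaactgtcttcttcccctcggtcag
F3: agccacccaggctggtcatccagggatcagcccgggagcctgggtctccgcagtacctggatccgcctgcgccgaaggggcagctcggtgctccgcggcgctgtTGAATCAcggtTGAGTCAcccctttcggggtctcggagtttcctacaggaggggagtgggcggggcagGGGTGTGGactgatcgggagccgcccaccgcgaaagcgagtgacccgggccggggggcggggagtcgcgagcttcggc
Serpinb2: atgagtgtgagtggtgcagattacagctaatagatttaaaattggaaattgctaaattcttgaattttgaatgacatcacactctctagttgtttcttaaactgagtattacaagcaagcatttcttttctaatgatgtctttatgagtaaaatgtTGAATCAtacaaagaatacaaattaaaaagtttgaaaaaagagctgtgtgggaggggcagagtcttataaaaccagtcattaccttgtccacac

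In the Plaur window the capitals mark an EGR match (GCGNGGGCG), whose first base is at -109 from the start, and an AP-1 match (TGANTCA) at -69. In the F3 window they mark 2 AP-1 matches at -146 and -135 and a KLF match (CCNCACCC, read on the minus strand) at -78, and in the Serpinb2 window 1 AP-1 match at -94. Both strands were searched, and none of these motifs shares letters with another in these windows. AP-1 letters were found in 5 of the 8 windows, those of Plaur, F3 and Procr and both windows of Serpinb2, which overlap and share 1 site, and in 7.81% of 32851 windows of the same length genome-wide. EGR letters were found in the windows of Plaur and Serpine2 and in 5.55% of all windows, and KLF letters in those of F3 and Procr and in 16.6% of all. The cyclic AMP response element (TGACGTCA, 1.79% of all windows) and the kappaB motif (searched in a single narrow form, 1.63%) had no match in the 8 windows. KappaB sites that differ from the form searched were not looked for, so these windows may still hold such sites. A match says that the letters are there, not that a factor binds.

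The summed level of 11 immediate early genes was 14475, 12393 and 19708 normalized counts in control mice 3, 4 and 5 and 6212, 5433 and 7120 in Ntsr2 AKO mice. The sum did not overlap between the genotypes, all 11 genes had a log2 fold change below 0, and Egr1, a transcription factor induced within minutes of many stimuli, was the gene that limma called (log2 fold change -2.30, adjusted p = 0.044). The alternative settings gave Egr1 adjusted p-values between 5.3e-30 and 0.81. The 2 most abundant genes of the list were Jun and Junb, and none was at 0 in any mouse. Within a genotype the order by this sum was not the order by Plaur: the lowest sum of the controls was in mouse 4 and the lowest Plaur in mouse 3, and the highest sum of the Ntsr2 AKO mice was in mouse 5 and the highest Plaur in mouse 3. Neutrophil markers (6 genes, led by Csf3r and S100a9) summed to 433, 587 and 938 normalized counts in controls 3, 4 and 5 and 247, 132 and 545 in the Ntsr2 AKO mice, an overlap, with all 6 below 0, a median log2 fold change of -1.63 and 0 called by limma, and with Cxcr2 and Mmp8 at 0 in at least 1 mouse. Lymphatic endothelial markers (7 genes, led by Lyve1 and Pdpn, none at 0) summed to 3051, 2575 and 4339 in controls and 2150, 1347 and 2512 in Ntsr2 AKO mice without overlap, with 5 of 7 genes below 0, a median of -0.55 and 0 called. The part of the immediate early genes or of these cells in the Plaur difference was not tested, and in bulk tissue fewer cells of a type cannot be told apart from less RNA per cell.

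The plasminogen activators themselves did not separate the genotypes. Plau, which encodes urokinase (chr14:20836660-20843385, plus strand), had 1511, 1007 and 1588 normalized counts in control mice 3, 4 and 5 and 1097, 1915 and 2752 in Ntsr2 AKO mice. Ntsr2 AKO 4 and 5 were above all controls, whereas Ntsr2 AKO 3 lay within them. Plau had a log2 fold change of 0.42 (SE 0.35, 95% interval -0.42 to 1.25), the one positive value among the 9 genes. In only the 3 mice with little skeletal muscle RNA it was -0.17, since the 2 Ntsr2 AKO mice with the most Plau were the 2 with muscle RNA. Without Ntsr2 AKO 5 the log2 fold change of Plau was 0.11, and without Ntsr2 AKO 3 it was 0.77.

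Plat, which encodes tissue plasminogen activator (chr8:22757727-22782844, plus strand), had 881, 828 and 1503 normalized counts in control mice 3, 4 and 5 and 773, 628 and 1706 in Ntsr2 AKO mice. In each genotype mouse 5, whose library held the most skeletal muscle RNA of its group, was far above mice 3 and 4, and the groups overlapped fully. The log2 fold change of Plat was -0.13 (SE 0.41, 95% interval -1.11 to 0.84), and it ran from -0.56 without Ntsr2 AKO 5 to 0.16 without Ntsr2 AKO 4. In only the 3 mice with little skeletal muscle RNA the log2 fold change of Plat was -0.14. Summed progenitor and fibroblast markers (8 genes, led by Dcn and Col1a1, none at 0) were also highest in mouse 5 of each genotype, at 85530, 149492 and 160987 in control mice 3, 4 and 5 and 116400, 106851 and 267748 in Ntsr2 AKO mice. Whether these cells account for the Plat levels was not tested.

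The RNA levels of ligand and receptor were also read as a ratio within each mouse. Per kb of exon, the ratio of Plau to Plaur was 3.19, 1.94 and 2.82 in control mice 3, 4 and 5 and 3.63, 14.1 and 16.8 in Ntsr2 AKO mice. The groups did not overlap, although Ntsr2 AKO 3 lay close to control 3. The far higher ratios were those of Ntsr2 AKO 4 and Ntsr2 AKO 5, the Ntsr2 AKO libraries that carried skeletal muscle RNA. This ratio contains the Plaur values that separated the genotypes, so it is not a further observation. The ratio of Plat to Plau per kb overlapped, from 0.221 to 0.359 over the controls and from 0.124 to 0.267 over the Ntsr2 AKO mice.

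Serpine2 and Serpinb2, which inhibit the activators, both overlapped between the genotypes, and Serpinb2 was spread far more widely than Serpine2. Another inhibitor of plasminogen activators is not reported here, so these values do not describe the inhibitors as a class. Serpine2, or protease nexin 1, which inhibits thrombin, urokinase and tissue plasminogen activator (chr1:79794197-79861180, minus strand), had 7655, 4519 and 6418 normalized counts in control mice and 5443, 5729 and 4075 in Ntsr2 AKO mice. The lowest value was in Ntsr2 AKO 5 and the next lowest in control 4, so the groups overlapped. The log2 fold change of Serpine2 was -0.27 (SE 0.23, 95% interval -0.81 to 0.27). It was negative in all 18 alternative settings and ranged from -0.48 without control 4 to -0.10 without control 3.

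Serpinb2 (chr1:107511423-107535478, plus strand) encodes plasminogen activator inhibitor 2, a serpin made chiefly by activated macrophages and epithelial cells. It had 8.28, 210 and 159 normalized counts in control mice 3, 4 and 5 and 11.4, 2.07 and 96.1 in Ntsr2 AKO mice. Control 3, Ntsr2 AKO 3 and Ntsr2 AKO 4 were all low and the other three were high, so mice of both genotypes stood at both ends. Its log2 fold change was -2.14 with an SE of 1.61 and a 95% interval of -5.97 to 1.69, and it ranged from -3.57 without control 3 to -0.97 without Ntsr2 AKO 4. The value in Ntsr2 AKO 4 came from 2 reads, and 9 and 11 reads were behind the other low values.

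The 9 macrophage markers found in the table summed to 33009, 93572 and 59966 in control mice and to 48134, 35455 and 76872 in Ntsr2 AKO mice. The 3 mice with high Serpinb2 were the 3 with the highest sums, although not in the same order among themselves. The sum was led by Lyz2 and C1qa, 8 of the 9 markers had a log2 fold change below 0, and none was called or at 0. The part of macrophage number in the Serpinb2 values was not tested.

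**Figure D2:**
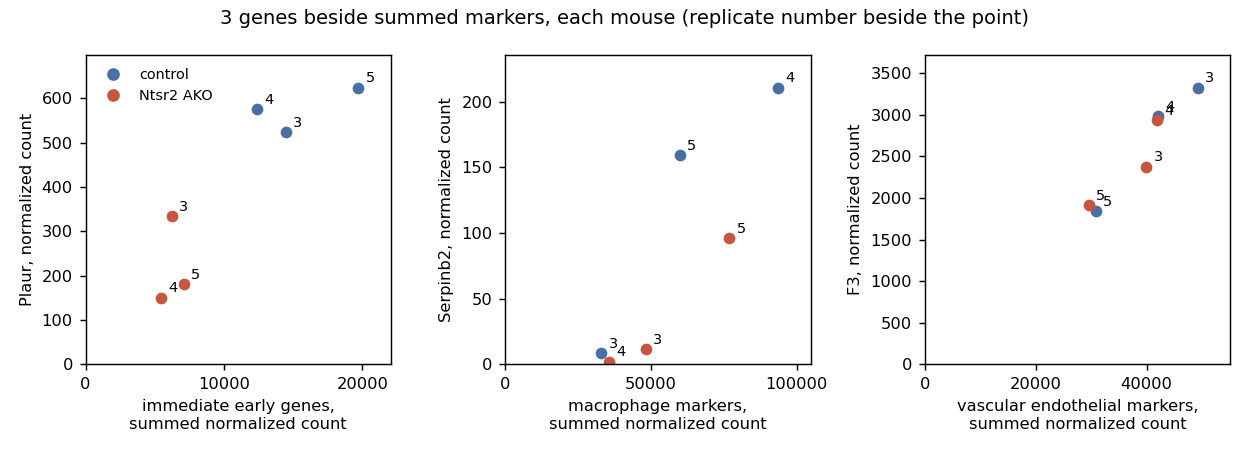
Normalized counts of Plaur, Serpinb2 and F3 (vertical axes) against the summed normalized count of immediate early genes, macrophage markers and vascular endothelial markers (horizontal axes), with 1 point per mouse in blue for control and red for Ntsr2 AKO. Immediate early sums lie from 12393 to 19708 in the blue points and from 5433 to 7120 in the red points, the 3 mice with Serpinb2 above 90 have the 3 highest macrophage sums, and F3 is lowest in both mice numbered 5, where the endothelial sums are 30913 and 29553.

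F3 and Tfpi, the pair that governs the start of clotting, both overlapped between the genotypes. F3, which encodes tissue factor (chr3:121723537-121735048, plus strand), had 3325, 2982 and 1838 normalized counts in control mice 3, 4 and 5 and 2378, 2932 and 1913 in Ntsr2 AKO mice. Mouse 5, with the most skeletal muscle RNA of its group, was the lowest of each genotype. F3 had a log2 fold change of -0.15 (SE 0.26, 95% interval -0.77 to 0.47), and it moved between -0.41 without control 5 and 0.02 without control 3. In only the 3 mice with little skeletal muscle RNA the log2 fold change of F3 was -0.40.

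Tfpi (chr2:84432855-84476775, minus strand), the inhibitor of the tissue factor complex, varied least of the 9 genes over the 6 mice. It had 1410, 1306 and 1262 normalized counts in control mice and 1127, 1307 and 1424 in Ntsr2 AKO mice, and the highest and the lowest values were both in the Ntsr2 AKO group. Tfpi had a log2 fold change of -0.05 (SE 0.14, 95% interval -0.37 to 0.27), which leaves room for a modest difference in either direction. In only the 3 mice with little skeletal muscle RNA the log2 fold change of Tfpi was -0.27. The ratio of F3 to Tfpi per kb was 5.10, 4.94 and 3.15 in control mice and 4.56, 4.85 and 2.90 in Ntsr2 AKO mice, so that mouse 5 was again the lowest of each genotype.

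Summed vascular endothelial markers (12 genes, led by Pecam1 and Cdh5, none at 0) were 49238, 41997 and 30913 in control mice 3, 4 and 5 and 39973, 41955 and 29553 in Ntsr2 AKO mice. The order of the mice by F3 was the same as by this sum, except that the lowest pair, control 5 and Ntsr2 AKO 5, was exchanged. With 6 mice of 2 genotypes this is a description of these libraries, and the part of endothelial cells in the F3 levels was not tested.

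Thbd and Procr, the receptors that turn thrombin and protein C towards anticoagulation, differed more between mice than between genotypes. Thbd (chr2:148404466-148408188, minus strand) had 16416, 5369 and 15442 normalized counts in control mice 3, 4 and 5 and 10222, 7871 and 5237 in Ntsr2 AKO mice. Both the highest values and 1 of the 2 lowest were in control mice. The log2 fold change of Thbd was -0.56 (SE 0.46, 95% interval -1.67 to 0.54), ranged from -1.09 without control 4 to -0.28 without control 3, and was 0.12 in only the 3 mice with little skeletal muscle RNA.

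Procr (chr2:155751117-155755471, plus strand) had 1104, 763 and 3538 normalized counts in control mice 3, 4 and 5 and 1332, 943 and 2249 in Ntsr2 AKO mice. Mouse 5, with the most skeletal muscle RNA of its group, was again the highest of each genotype, as for Plat. Procr differed by -0.03 on the log2 scale (SE 0.59, 95% interval -1.43 to 1.38), and it went from -0.48 without control 4 to 0.62 without control 5. In only the 3 mice with little skeletal muscle RNA the difference in Procr was 0.54. Thbd did not follow the summed endothelial markers, and neither did Procr, which was highest in both mice with the lowest endothelial sums. The ratio of Thbd to Procr per kb was 8.11, 3.84 and 2.38 in control mice and 4.19, 4.55 and 1.27 in Ntsr2 AKO mice and overlapped.

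**Figure D3:**
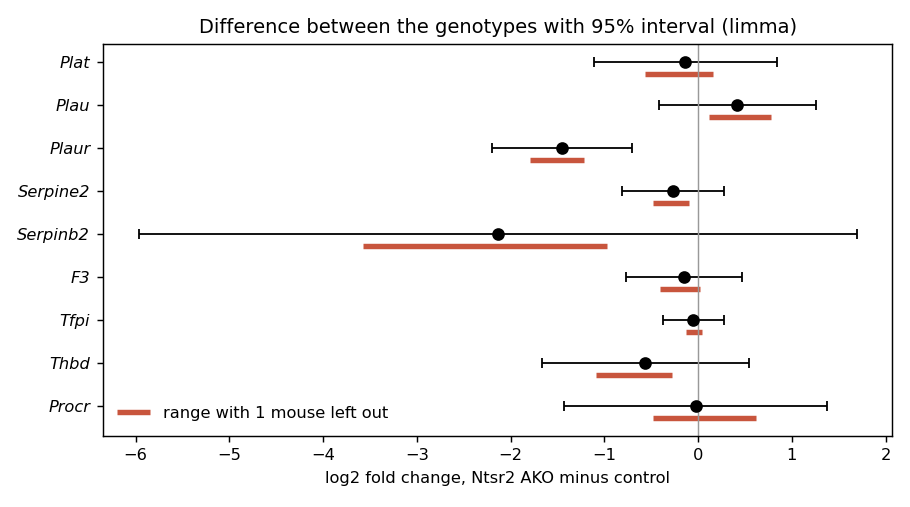
Log2 fold change (horizontal axis, Ntsr2 AKO minus control) of the 9 genes with its 95% interval from limma (black), and the range when each mouse was left out in turn (red bars). The interval of Plaur, -2.19 to -0.71, is the one that lies wholly below 0, and that of Serpinb2 is the widest, from -5.97 to 1.69. The genes were picked with this comparison in view, so the place of an interval is a description and not a test.

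Of the 9 genes, 8 had a log2 fold change below 0, as did 51.0% of all genes tested, and the median was -0.15 against -0.01 over all genes. Under quantile normalization 6 of the 9 were below 0, beside 7179 of all 16157 genes, whose median was then 0.05. Below 0 were also 6 of the 9 without control 5, 6 without Ntsr2 AKO 4 and 5 without Ntsr2 AKO 3. Over all genes these fits had 8012, 8254 and 8109 below 0. All 9 passed the minimum mean of 10 normalized counts, and Serpinb2 was the one with values under it in single mice.

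The order of the levels was read per kb of exon, over all 6 mice. Thbd was highest, at a mean of 2711 normalized counts per kb, and was above F3, the next at 1014, in 6 of 6 mice. F3, Procr (815), Plau (695) and Serpine2 (681) formed a middle group in normalized counts per kb, and neighbours in it changed places between mice: F3 was above Procr in 4 of 6 mice, Procr above Plau in 2 and Plau above Serpine2 in 2. Serpine2 was above Tfpi (239 per kb) in 6 of 6 mice. Tfpi, Plat (169) and Plaur (152) were again not separated beyond the spread, Tfpi being above Plat in 4 mice and Plat above Plaur in 3. By genotype, 3 pairs of neighbours changed places in mean level per kb. Plaur was at 219 and Plat at 172 in control mice against 84.8 and 166 in Ntsr2 AKO mice. Serpine2 was at 748 and Plau at 578 against 613 and 812. The mean of Procr, 887 and 742, was above that of Plau in control mice and below it in Ntsr2 AKO mice. Mouse by mouse, Procr was above Plau in 1 control and 1 Ntsr2 AKO mouse, so this pair did not change by genotype. The control mean of Procr rested on control 5, at 1742 per kb against 544 and 376 in controls 3 and 4. Plat was above Plaur in 1 control and 2 Ntsr2 AKO mice, and Plau above Serpine2 in 0 and 2. Serpinb2 was lowest in 6 of 6 mice, at 34.6 normalized counts per kb. Among the activators and their inhibitors, Serpine2 per kb was 3.22 to 6.55 times Plat in control mice and 1.80 to 6.87 times in Ntsr2 AKO mice, and against Plau per kb the ratio ran from 1.15 to 1.45 and from 0.423 to 1.42.

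**Figure D4:**
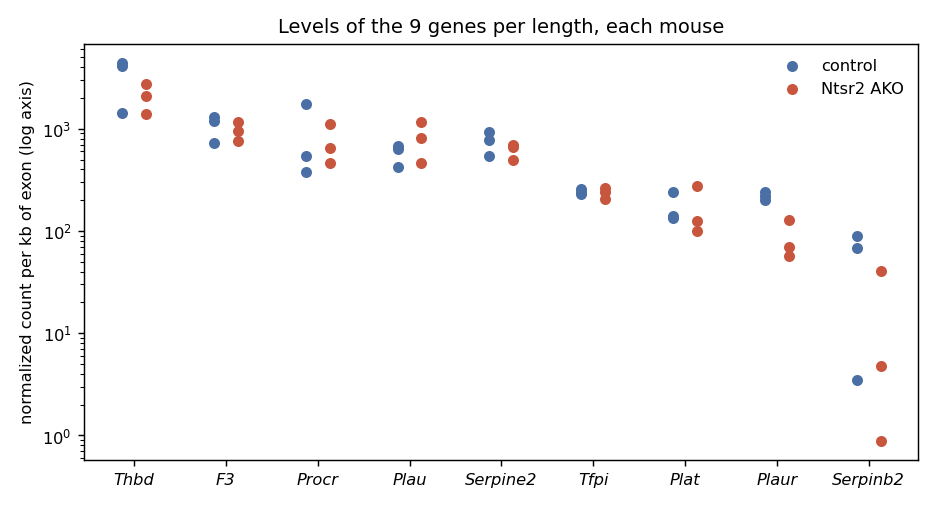
Normalized count per kb of exon (vertical log axis) of each of the 9 genes in every mouse, control in blue and Ntsr2 AKO in red, ordered by the mean over 6 mice. Levels run from a mean of 2711 for Thbd to 34.6 for Serpinb2, and at neither end does a mouse change the order.

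Other genes of these pathways were taken from a list of 30 on the plasminogen side (plasminogen, its receptors, plasmin inhibitors and clearance receptors) and 32 on the coagulation side (clotting factors, thrombin receptors and inhibitors). Of these 62 genes, 56 were in the table and 41 were tested. Limma called 0 of the 41, as did edgeR. DESeq2 also called 0, but it gave no adjusted p for F2rl2, F2rl3 and Serpinc1. At an unadjusted limma p under 0.05 there were 3, 2 of them lower (5.27% of all genes) and 1 higher (3.08% of all genes) after Ntsr2 loss. On the plasminogen side 16 of 21 tested genes had a log2 fold change below 0 and 5 above, with a median of -0.20, and 4 were lower and 1 higher without overlap. On the coagulation side the counts were 15 below and 5 above of 20, with a median of -0.21, and 3 were lower and 0 higher without overlap. Of all genes 8.16% were lower and 6.82% higher without overlap, and the median over all genes was -0.01.

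Plasminogen itself (Plg), its inhibitor Serpinf2 and 13 others were under the filter of a mean of 10, including the fibrinogen chains Fgb and Fgg and protein C (Proc), all made mainly by the liver. The RNA of these WATs holds no measure of the plasma proteins that the liver supplies.

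Thbs1 had the largest difference of the 41. It encodes thrombospondin 1, a matrix protein that binds plasminogen and its activators, and had 55865, 11623 and 21253 normalized counts in control mice 3, 4 and 5 and 5130, 1088 and 759 in Ntsr2 AKO mice. The highest Ntsr2 AKO value was less than the lowest control value. Thbs1 had a log2 fold change of -3.89 (SE 0.83) with an adjusted p of 0.499 by limma, and over all alternatives its adjusted p ranged from 0.051 with DESeq2 to 1. With 1 mouse left out the log2 fold change of Thbs1 ran from -4.72 without Ntsr2 AKO 3 to -3.28 without control 3, and in only the 3 mice with little skeletal muscle RNA it was -2.31.

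Surface proteins that gather plasminogen went both ways. S100a10, which with annexin A2 forms a receptor for plasminogen and its tissue activator, had 14230.2, 16841 and 17200.0 normalized counts in control mice and 11658, 10573 and 13362 in Ntsr2 AKO mice. Its log2 fold change was -0.44 (SE 0.14, limma adjusted p = 0.545). Plgrkt, a plasminogen receptor of the cell membrane, had 2294, 2063 and 1853 normalized counts in control mice and 2563, 2659 and 2969 in Ntsr2 AKO mice, with a log2 fold change of 0.40 (SE 0.13, limma adjusted p = 0.545). The groups of S100a10 and of Plgrkt did not overlap, and neither gene passed the test. Anxa2, which encodes annexin A2, had a log2 fold change of -0.26 (SE 0.20), and its groups overlapped. Of the 4 integrin subunits on the list, partners of the urokinase receptor at the cell surface, 2 did not overlap, with log2 fold changes of -1.06 for Itgb3 (SE 0.45, limma adjusted p = 0.598, and -0.53 without Ntsr2 AKO 4) and -0.20 for Itgb1 (SE 0.11, limma adjusted p = 0.652). The other 2, Itgav at -0.03 and Itgam at -0.56, overlapped.

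Serpini1 (neuroserpin, log2 fold change 0.31), Eno1 (an enolase that also binds plasminogen, 0.20) and Igf2r (a receptor that binds the urokinase receptor, 0.11) completed the named genes of the plasminogen side, all with overlapping groups. On the coagulation side the named genes with values below 0 were F10, the factor X gene, at log2 fold change -2.47 (SE 1.69), F2rl2, a thrombin receptor, at -2.11 (SE 1.08), Tfpi2, a relative of Tfpi, at -0.98 (SE 0.49) and Pros1, protein S, at -0.23 (SE 0.17). Without Ntsr2 AKO 4 the log2 fold changes were -0.45 for F10, -0.97 for F2rl2 and -0.41 for Tfpi2, and DESeq2 gave -1.38 for F10. F10 and F2rl2 had 0 reads in Ntsr2 AKO 4 and low counts elsewhere, 30.4 to 182.6 normalized counts of F10 and 17.3 to 22.1 of F2rl2 in control mice. F2rl2 and Tfpi2 did not overlap between the genotypes, whereas F10 and Pros1 did. Above 0 were F13a1 (0.31), Serpinc1 (antithrombin, 0.24), Vkorc1 (vitamin K epoxide reductase, 0.23) and Gas6 (0.02), all overlapping. The smallest limma adjusted p of the named genes on this side was 0.63, for Tfpi2.

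**Figure D5:**
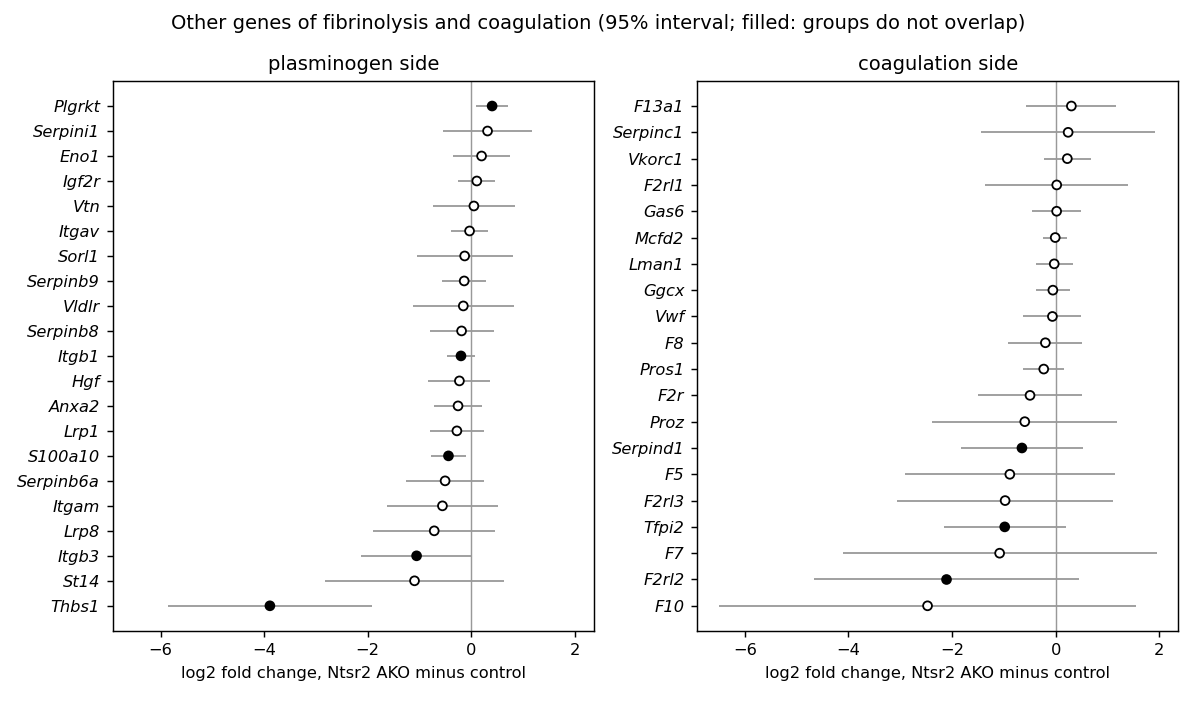
Log2 fold change (horizontal axis, Ntsr2 AKO minus control) with 95% intervals from limma for the 41 tested genes of the plasminogen side (left, 21 genes) and the coagulation side (right, 20 genes), with filled points where the genotypes did not overlap. Thbs1 stands furthest from 0 at -3.89, and Plgrkt at 0.40 is the one filled point above 0.

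Genes whose pattern over the 6 mice was most like that of each of the 9 were sought among all tested genes, by the root mean square difference of log2 values that had been centred and scaled within each gene. The nearest to Plaur was Aars, which charges tRNA with alanine, at a distance of 0.073. The nearest to Plau were Cdkn2d (0.047) and Calcrl (0.088), to Thbd were Fndc3b (0.057) and Oxsr1 (0.061), and to F3 were Gimap8 (0.082) and Gimap6 (0.16). Serpinb2 was nearest to Fcgr1 (0.099) and Ms4a6d (0.12), which are both expressed by macrophages, Procr to Tmem100 (0.076) and Cited4 (0.17), and Serpine2 to Yap1 (0.11) and Ccdc15 (0.13). Plat (Slc35f5 at 0.17 and Il13ra1 at 0.17) and Tfpi (Gm8369 at 0.19 and Enpp3 at 0.19) had no closer partner. A typical gene's nearest distance was 0.10 (median of 808 genes), so with 6 mice such closeness is common.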

How the data were processed

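RNA-seq of WATs from 3 control and 3 Ntsr2 AKO mice was analysed. The authors trimmed reads with Trimmomatic, aligned them with HISAT2 (build mm10 in the submitters' processing notes), quantified them with StringTie and tested them with DESeq2. Versions and strand setting are not given in the sources used here. The deposited signal table holds normalized counts. All values (100%) came out as whole reads (tolerance 0.01) when each column was divided by the value of 1 read, and the totals were 54085088 to 66098226. The number of mice limits precision, and for low genes such as Serpinb2, F10 and F2rl2 so does the number of reads.

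Genes with a mean of at least 10 were tested in R 4.3.3 with limma 3.58.1 (trend) on log2(normalized count + 1), a scale on which fold changes of low genes depend on the pseudocount, with Benjamini-Hochberg adjustment over 16157 genes at 0.05. Alternatives were edgeR 4.0.16 and DESeq2 1.42.0 on those whole reads, other pseudocounts, filters, scalings, a muscle covariate, thinned reads and left-out mice. Exon lengths are merged exons of GENCODE M21, and promoters are from RefSeq. The members and lists were chosen with earlier results of these data known, and 1 further inhibitor of plasminogen activators and 1 of the genes most like a member are not reported here. Named genes were the 9 members, the 4 smallest p-values in each direction on each side of the pathway, the 2 genes most like each member, Ntsr2, Adipoq, and the 2 most abundant markers of each list with any at 0. Anxa2, Itgav and Itgam are given beside partners that this rule named. p-values measure only the spread between these mice.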

Additional observations from a re-analysis of the deposited data

How the results depend on the processing

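Limma called 1 gene of all those tested, and 0 with no filter on low values, with eBayes without trend, with a replicate block, with edgeR (1323 at an unadjusted p under 0.05), with a skeletal muscle covariate, with each mouse left out in turn (0 to 0), or in only the 3 mice with little skeletal muscle RNA, an alternative chosen after seeing the data. DESeq2 called 220 genes, and 1 of the 9 members against 0 in limma. At an unadjusted p under 0.05 limma had 1349 genes, 647 without Ntsr2 AKO 4 and 309 in the 3 mice. Correlations of deviations between mice of the same replicate number were 0.45, -0.24 and 0.41 for numbers 3, 4 and 5. Between different numbers they ran from -0.52 to 0.26. These values do not settle whether the replicate numbers pair the mice. With 1 mouse left out, log2 fold changes turned sign for F13a1 (-0.015 without control 3, up to 0.60), Igf2r (-0.0050 without control 4, up to 0.21), Gas6 (-0.03 without control 4 and -0.20 without Ntsr2 AKO 3, up to 0.13), Eno1 (-3.8e-05 without Ntsr2 AKO 5, up to 0.36) and Serpinc1 (-0.23 without Ntsr2 AKO 5, up to 0.75), and in the 3 mice for Serpini1 (-0.13), Eno1 (-0.19) and Vkorc1 (-0.0089). The sign of Plaur, Serpine2 and Serpinb2 held in all 18 alternatives, and that of Procr turned in 5, Plat in 3, F3 and Tfpi in 2 each, and Plau and Thbd in 1 each. The causes were not tested.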

Other observations

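Other cell type markers were read in the same mice. Epithelial markers (7 genes, 2 tested, led by Cdh1 and Krt8) summed to 45.4 to 293 in control mice and 34.2 to 41.3 in Ntsr2 AKO mice, with 6 of 7 at 0 in at least 1 mouse (Epcam, Krt8, Krt18, Krt5, Krt14 and Elf5).

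The sums of the remaining lists overlapped between the genotypes. Adipocyte markers (10 genes, led by Cfd and Fabp4) summed to 2479309 to 3589172 in control mice and 2888943 to 3060879 in Ntsr2 AKO mice. Mural cell markers (8 genes, led by Rgs5 and Pdgfrb) summed to 22896 to 31610 and 20605 to 27848, and platelet markers (6 genes, led by Pf4 and Itga2b, Gp6 at 0 in at least 1 mouse) to 1954 to 4012 and 2320 to 3306. Red blood cell markers (5 genes, led by Hbb-bs and Hba-a1) summed to 51611 to 143074 and 52601 to 173810, and mesothelial markers (7 genes in the table, led by Krt19 and Gpm6a, with Msln, Upk3b, Wt1 and Krt7 at 0 in at least 1 mouse) to 259 to 557 and 257 to 340. Skeletal muscle markers (10 genes, led by Myh4 and Ckm) ran from 434 to 2781501 and from 1452 to 196598, with 6 at 0 in at least 1 mouse (Ckm, Myh4, Myh1, Tnni2, Actn3 and Pvalb).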
